A study of Mus musculus with 12 samples.

Results

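Cytosolic ribosomal proteins build the large and small subunits of the ribosome, which translates all mRNAs outside the mitochondria. Their genes are transcribed in nearly every cell, and their mRNAs begin with a run of pyrimidines (C and T in DNA), the TOP motif, through which mTOR signalling controls how strongly they are translated. In brain, these proteins are made by neurons and glia alike and serve protein synthesis in the cell body, processes and synapses. The genes were taken by name: symbols that start with Rpl or Rps and a digit, with Rplp0, Rplp1, Rplp2 and Rpsa, without S6 kinases and pseudogenes, and with a mean of at least 1 CPM (counts per 1000000 reads assigned to genes) over the 12 libraries. Of 21983 genes in the count table, 86 had such a name and 81 reached that level: 46 of the large subunit, 30 of the small subunit and 5 related genes that are not standard subunit proteins (Rpl7l1, Rpl22l1, Rps27l, Rps27rt and Rps19bp1).

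The RNA came from brains of C57BL/6 wild type mice labelled as 6 weeks old. There were 4 artesunate-treated ECM libraries (treated ECM), 4 ECM libraries and 4 control libraries. ECM is experimental cerebral malaria, a mouse model in which infection with a malaria parasite leads to inflammation and vascular injury in the brain. Artesunate is an antimalarial drug, and the labels give treatment for 4 days. Parasite species, day of infection, brain region and whether each library is a separate animal are not stated in the sources used here, so p-values measure the spread between these libraries, which may be technical. Libraries held 13342177 to 18886822 reads assigned to genes. Levels are CPM after TMM scaling, and calls are edgeR quasi-likelihood tests with a Benjamini-Hochberg adjusted p below 0.05 over 14626 genes.

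Some features of whole libraries moved with the groups or set libraries apart, and they are given before the gene results. The 7 T and NK cell markers summed to 21.5 to 54.8 CPM in treated ECM, 105 to 229 CPM in ECM and 0.271 to 0.371 CPM in control libraries, where 3 to 5 of the 7 had no read. The 4 monocyte markers summed to 9.89 to 22.4 CPM in treated ECM, 43.5 to 114 CPM in ECM and 0.509 to 0.990 CPM in control libraries. The 3 endothelial markers summed to 76.6 to 103 CPM in treated ECM, 193 to 211 CPM in ECM and 58.6 to 70.2 CPM in control, and the 5 neuron markers, a check of the labelled tissue, to 4345 to 7431 CPM over all libraries. The 3 erythroid markers summed to 12.3 to 75.8 CPM in treated ECM, 0 to 0.684 CPM in ECM and 10.6 to 42.4 CPM in control, and all 3 were at 0 in ECM 3. Choroid plexus markers summed to 66.0 to 837 CPM in treated ECM, 9.12 to 373 CPM in ECM and 52.2 to 597 CPM in control, with ECM 1, 2 and 3 at 9.12 to 10.5. Cerebellum markers, an index of which brain region was sampled, ranged widely within each group, from 445 to 2765 CPM in treated ECM, 263 to 5162 CPM in ECM and 582 to 3079 CPM in control libraries. The highest sums of the T and NK cell, monocyte and cerebellum markers were all in ECM 2. Mitochondrial genes took 15.2% of the reads in ECM 2, 13.2% in ECM 3 and 10.7% in control 4, against 4.74% to 7.89% in the other libraries. The part of these features in the results below was not tested. In bulk tissue, a change in the cells present and a change in RNA per cell cannot be told apart.

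Start sites are shown for some members whose levels differed or that stood apart in single libraries. The pyrimidine run at the start is the feature these genes are known for. Rps29 and Rps14 are not among those shown. Each line gives 15 bases before the annotated start and 15 bases from it onward, with the longest C/T run touching the 5 bases on either side of the start in capitals. Sequences are RefSeq's (GRCm38.p6) on the coding strand, and for genes with several annotated starts the one with the longest run is shown.
Rps18 (chr17:33955651-33955680, minus strand): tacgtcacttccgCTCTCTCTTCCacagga
Rpl14 (chr9:120571502-120571531, plus strand): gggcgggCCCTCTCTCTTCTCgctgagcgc
Rpl35a (chr16:33056467-33056496, plus strand): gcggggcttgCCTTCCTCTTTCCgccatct
Rps27l (chr9:66946071-66946100, plus strand): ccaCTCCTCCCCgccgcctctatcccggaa
Rpl13a (chr7:45128731-45128760, minus strand): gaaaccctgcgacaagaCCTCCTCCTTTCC
Rpl35 (chr2:39005117-39005146, minus strand): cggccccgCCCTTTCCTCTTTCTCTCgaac
Rps19 (chr7:24884577-24884606, plus strand): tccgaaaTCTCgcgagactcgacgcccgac
Rps21 (chr2:180257364-180257393, plus strand): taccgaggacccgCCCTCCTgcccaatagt
Rps7 (chr12:28635939-28635968, minus strand): gcttccggTTTCCacccacctacttccgct
Rps26 (chr10:128626492-128626521, minus strand): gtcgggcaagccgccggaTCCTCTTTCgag
Rps6 (chr4:86857353-86857382, minus strand): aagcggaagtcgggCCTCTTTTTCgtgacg
Rps24 (chr14:24490663-24490692, plus strand): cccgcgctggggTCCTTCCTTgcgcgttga
The run measured 11 bases in Rps18, 14 in Rpl14, 13 in Rpl35a and 18 in Rpl35, but 4 in Rps19 and 5 in Rps7. The Rpl13a run, 14 bases long, continues by 1 base past the window. The marked runs of Rps27l, Rps19 and Rps7 end before the annotated start, so they are not part of the annotated mRNA. Those of Rpl13a and Rps26 begin a few bases after it. Of the 81 members, 61 matched an entry in the RefSeq promoter table. A C/T run of at least 8 bases within 5 bases of the start was found in 23 of the 61 (37.7%), against 10.96% of 27025 genes in the table. From 250 bases before to 50 bases after the start, the letters CCGGAAG, bound by ETS factors, occurred on either strand in 24 of the 61 (39.3%, against 9.93% of all genes). The letters AAGATGGC, bound by YY1, occurred on either strand in 6 of the 61 (9.84%, against 3.19%). These counts describe letters in the reference and say nothing of what is bound in these brains.

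Read levels of the members spanned a wide range although ribosomes hold their proteins in nearly equal numbers. The mean over 12 libraries went from 1.02 CPM for Rpl38 to 553 CPM for Rpl4, with 27 members under 10 CPM and 25 at 100 CPM or more. Per kilobase of transcript, the lowest were Rps13 (2.45 CPM per kb), Rpl38 (2.81), Rps16 (2.85), Rps27a (3.50) and Rpl17 (3.61). The highest per kilobase were Rps15 (472), Rplp1 (376), Rps14 (374), Rpl26 (368) and Rpl4 (360). Ribosomal protein genes have many processed pseudogenes, and a median of 60.5% of a member's 50-base words also stood in transcripts of another gene (range 0% to 98.6%). The 25 members with at least 75% of words shared had a median of 14.2 CPM per kb. The 10 with under 25% shared had 49.6, about the median of all 81 members (50.5), so level did not fall steadily with sharing. The rank correlation of level per kilobase with sharing was -0.31 across the 81 members, given as a description since members share pseudogene families and libraries. Rps27 and its near copy Rps27rt, an intronless gene, differed widely in level although both were highly shared. Rps27 averaged 2.57 CPM and Rps27rt 110.02 CPM, with 98.6% and 91.1% of their words shared. How reads that fit several genes were counted is not stated in the sources used here, so levels of the most shared members are uncertain.

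The other 5 genes with such a name were below 1 CPM and are not among the 81. Rpl10l, known as an autosomal copy used in male germ cells, had 0 reads in all 12 libraries. Rpl39l had a mean of 0.0427 CPM, Rps10 0.176 CPM, Rpl36al 0.337 CPM and Rpl3l, a form of Rpl3 known from muscle, 0.392 CPM. Rps10 overlaps an annotated readthrough gene, RPS10-NUDT3. Rpl3l (ECM against control) and Rps10 (treated ECM against control) are listed in the authors' deposited tables with log2 fold changes of 2.15 and 2.94 and adjusted p of 0.149 and 0.115.

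The summed level of the members was higher in both infected groups than in controls. The 80 members with usable values in all libraries summed to 6201, 6566, 6030.0 and 6590.3 CPM in treated ECM, 6144, 9268, 6106 and 7170 CPM in ECM and 5151, 5297, 4898 and 4892 CPM in control libraries. Every treated ECM and every ECM library was above every control, and ECM 2 was far above the rest on this TMM scale. Group means were 6347 ± 276 CPM in treated ECM, 7172 ± 1482 in ECM and 5060 ± 199 in control (SD, n = 4 each), so the mean of treated ECM was 1.25 times and that of ECM 1.42 times the control mean. Treated ECM stood at 0.885 of ECM, a gap smaller than the SD among ECM libraries. As an unscaled share of all reads assigned to genes, the members took 0.619% to 0.691% in treated ECM, 0.545% to 0.856% in ECM and 0.457% to 0.551% in control, so that ECM 3 then lay just below control 2. Group means of that share were 0.661%, 0.686% and 0.509%, and treated ECM stood at 0.965 of ECM. Large and small subunit genes shared this in nearly equal measure: ECM over control was 1.42 for the large and 1.41 for the small subunit sum, and treated ECM over control 1.24 and 1.27.

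**Figure D1:**
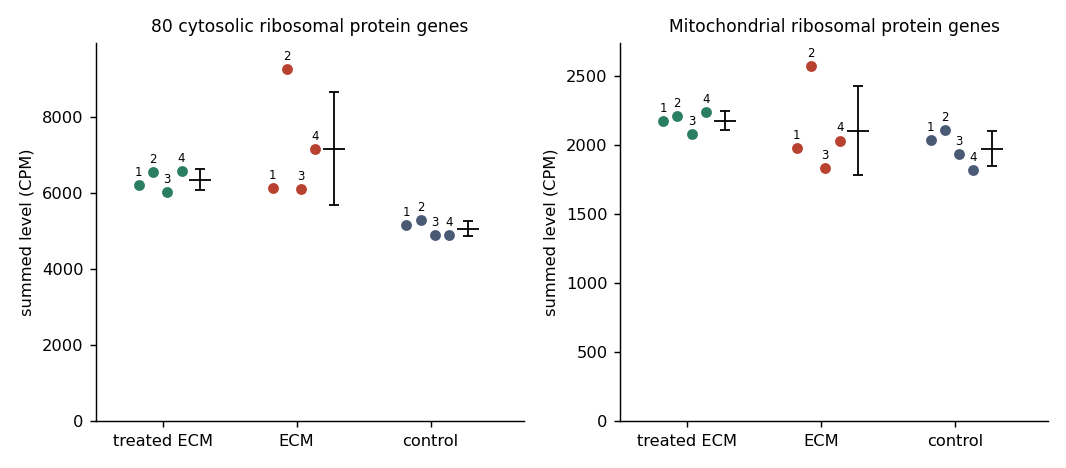
Summed level (CPM, linear axis from 0) of 80 cytosolic ribosomal protein genes (left) and of the mitochondrial ribosomal protein genes (right) in each library, numbered by replicate; the bar is the group mean with its SD, n = 4. Cytosolic sums were 6030 to 6590 in treated ECM, 6106 to 9268 in ECM and 4892 to 5297 in control, without overlap with control on this TMM scale, while mitochondrial sums overlapped between groups.

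Nuclear genes for proteins of the mitochondrial ribosome, listed for comparison, had group means closer to each other. Their sums were 2083 to 2242 CPM in treated ECM, 1831 to 2572 CPM in ECM and 1816 to 2107 CPM in control. Ratios of means were 1.07 for ECM over control, 1.04 for treated ECM over ECM and 1.10 for treated ECM over control. Of 75 tested, Mrpl41 was called higher in ECM than in control (log2 fold change 1.19 ± 0.20 SE, edgeR adjusted p = 0.00133) and lower in treated ECM than in ECM (-0.86 ± 0.20, adjusted p = 0.0179). Another 5 were called higher in treated ECM than in ECM, by 0.62 (Mrps25) to 0.93 (Mrpl14). Of all genes, 7.3% were called higher in ECM than in control, and 3.04% higher and 5.68% lower in treated ECM than in ECM.

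Treated ECM libraries were the most alike in their members. The median coefficient of variation over the 81 members was 8.71% in treated ECM, 32.8% in ECM and 21.8% in control (n = 4 each, 3 for Rps19bp1 in treated ECM). The spread was uneven between libraries. After subtracting each member's mean over the 12 libraries on the log2 scale, the SD across members was 0.763 in control 4 and 0.617 in ECM 3, against 0.197 to 0.375 in the other 10. Over all genes the SD was 0.756 in control 4, 0.656 in ECM 3 and 0.754 in ECM 2, against 0.326 to 0.465 in the other 9. The deviations of these 2 libraries, from different groups, followed each other with r = 0.84 across 80 members, the highest of all 66 pairs. This is a description: the members share libraries and base composition.

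**Figure D2:**
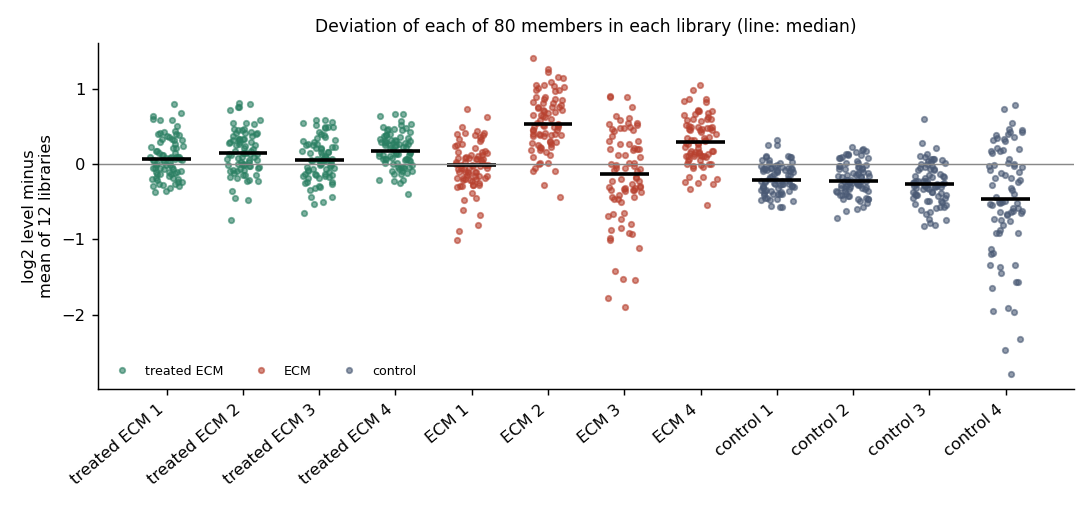
Log2 level of each of 80 members in each library minus that member's mean over 12 libraries; points are genes, the line is the median, and colours are the groups. Control 4 and ECM 3 spread most (SD 0.763 and 0.617), ECM 2 has the highest median (0.52) and control 4 the lowest (-0.46).

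In control 4, 40 members lay below and 28 above all other controls, and 15 of them were below by more than 2-fold. In ECM 3, 39 lay below and 7 above all other ECM libraries, again 15 of them below by more than 2-fold. Of these, 12 genes were low by that much in both: Rpl3, Rpl8, Rpl10a, Rpl18, Rplp1, Rplp2, Rps7, Rps14, Rps19, Rps21, Rps27 and Rps27rt. These and the genes of the next paragraph were named after their values were seen. The counts of this paragraph were not taken over all genes, where control 4 and ECM 3 also spread widely (SD 0.756 and 0.656).

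Rps14, a small subunit protein whose human gene lies in the region lost in 5q- syndrome, shows the split at its widest. It had 278, 268, 249.5 and 266 CPM in treated ECM, 286, 286, 49.6 and 337 CPM in ECM and 221, 212, 199.5 and 26.6 CPM in control libraries. Treated ECM was tight and above every control, whereas ECM 3 and control 4 were several-fold below the rest of their groups. Rps19, the human gene most often mutated in Diamond-Blackfan anaemia, had 14.4 CPM in ECM 3 against 59.9 to 95.0 in the other ECM libraries, and 7.30 CPM in control 4 against 39.6 to 44.2 in the other controls. Rps26 went the other way, with 231 CPM in ECM 3 against 105 to 178, and 207 CPM in control 4 against 94.7 to 107. Rps6, the substrate of S6 kinase, likewise had 15.6 CPM in ECM 3 against 5.42 to 13.1 and 14.4 CPM in control 4 against 6.37 to 7.90. Low members tended to have GC-rich transcripts: the rank correlation of deviation with GC content was -0.41 in control 4 and -0.37 in ECM 3, against -0.23 to 0.44 in the other libraries. Over all genes that correlation was -0.62 in control 4 and -0.46 in ECM 3. Their part in the spread was not tested. The ratio of large to small subunit sums was also highest there, 1.17 in control 4 and 1.13 in ECM 3, against 0.970 to 1.04 elsewhere.

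**Figure D3:**
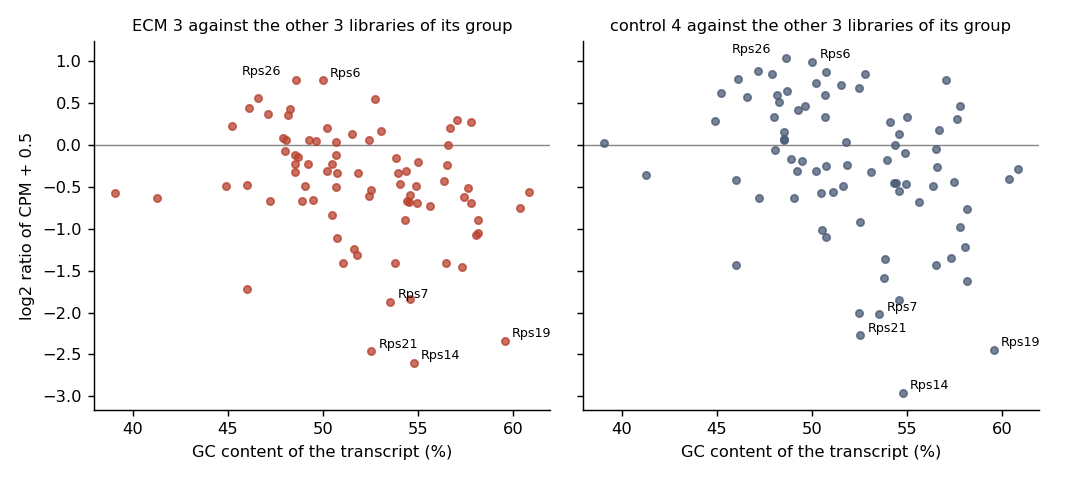
Log2 ratio of CPM + 0.5 in ECM 3 (left) or control 4 (right) to the mean of the other 3 libraries of its group, against GC content of the transcript (%), 1 point per member. Rps14, Rps19, Rps21 and Rps7 lie lowest among the labelled genes in both panels, with Rps14 at -2.60 in ECM 3 and -2.96 in control 4, and Rps26 and Rps6 lie above 0.

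ECM against control asked what cerebral malaria changed. Nearly all members had higher levels in ECM, but few passed the test. Of the 81, 5 were called higher (6.17%), a share near the 7.3% of all 14626 genes called higher. No member was called lower by edgeR (2.91% of all genes), none had an unadjusted p below 0.05 in that direction (9.18% of all genes), and DESeq2 called none lower. At an unadjusted p below 0.05, 37 members were higher (45.7%, against 13.3% of all genes). By direction alone, 76 of 81 had a positive log2 fold change (93.8%, against 50.0% of all genes), with a median of 0.51 against -0.00 over all genes. The 30 small subunit genes were all positive (median 0.53, range 0.26 to 0.98), and 43 of 46 large subunit genes were (median 0.50, range -0.41 to 0.90). Libraries did not overlap in 14 members, all higher in ECM (17.3%, against 9.05% of all genes), and in none lower (5.22%).

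**Figure D4:**
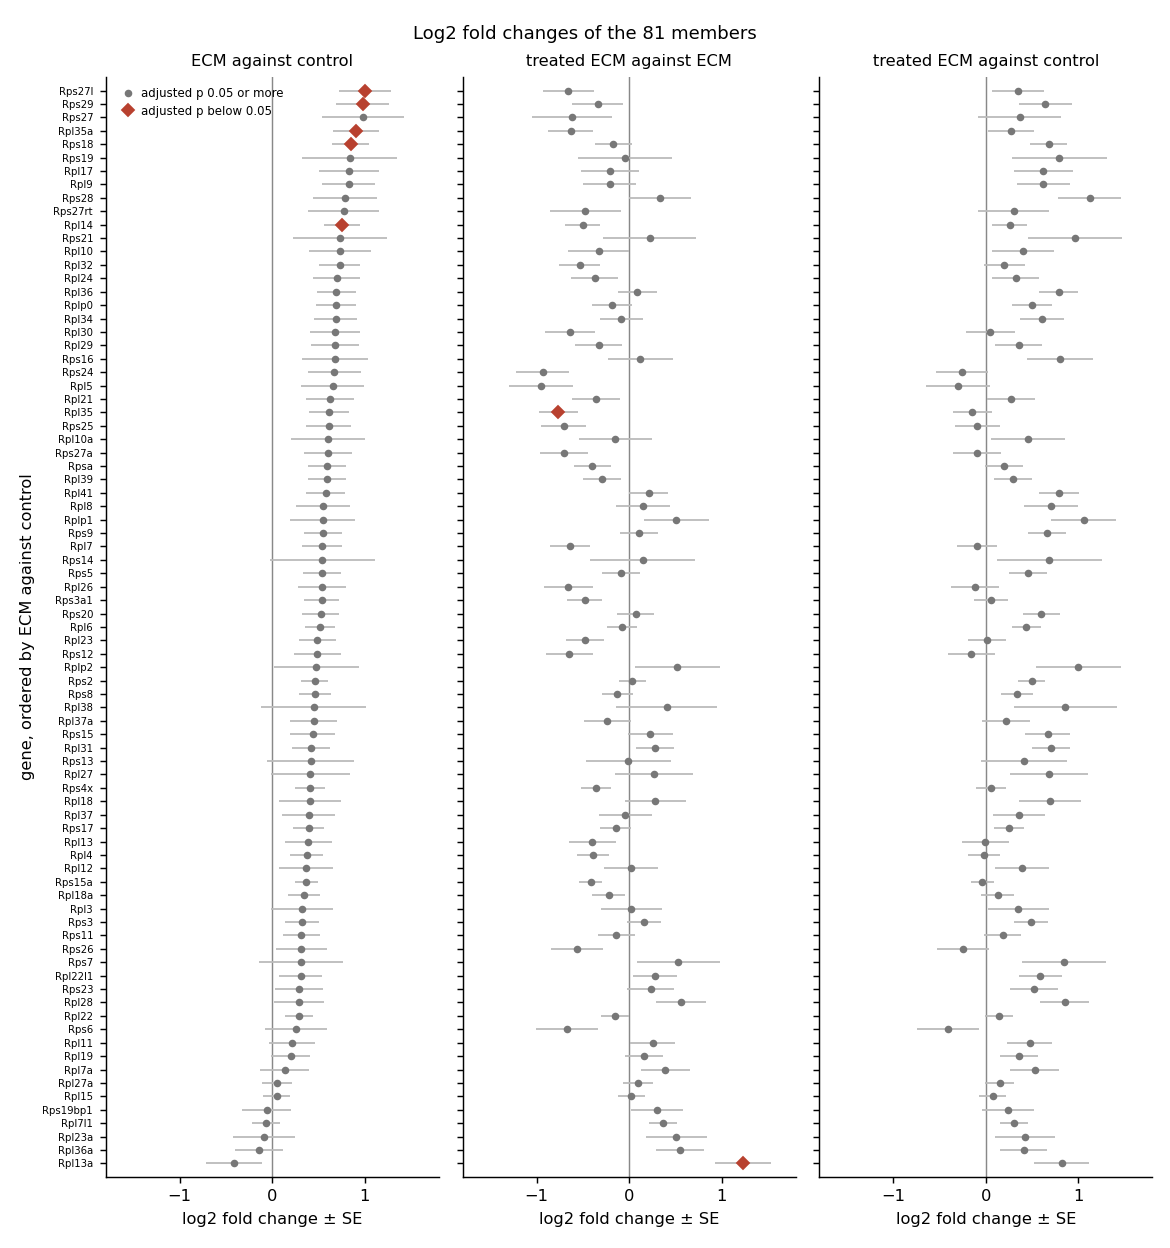
Log2 fold change (± SE) of each of the 81 members in the 3 comparisons, with genes ordered by ECM against control; red diamonds have an adjusted p below 0.05. In ECM against control 76 of 81 lie right of 0, in treated ECM against ECM 34, and in treated ECM against control 68.

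Rps18, a protein of the head of the small subunit (chr17:33951999-33956001, GENCODE M21, GRCm38), had the lowest adjusted p. It measured 57.4, 110.4, 63.7 and 97.3 CPM in ECM and 45.5, 46.1, 38.5 and 52.5 CPM in control libraries. All 4 ECM libraries were above all controls. The log2 fold change was 0.85 ± 0.20 (adjusted p = 0.0148), and its call held in 11 of 12 fits that left out 1 library, the exception being the fit without control 3. Without control 4, ECM 2 and ECM 3 it was 0.83 (adjusted p = 0.0111).

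Rpl14, of the large subunit (chr9:120571444-120574654), had 108, 164, 94.3 and 83.2 CPM in ECM and 71.2, 62.1, 74.7 and 58.4 CPM in control. The groups did not overlap and ECM 2 was highest. Its log2 fold change of 0.76 ± 0.19 (adjusted p = 0.0225) fell to 0.46 without control 4, ECM 2 and ECM 3, still called (adjusted p = 0.0309). The call was lost without control 1 or control 2.

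Rps27l, a paralog of Rps27 that p53 induces, had the largest log2 fold change of any member, 1.00 ± 0.28 (adjusted p = 0.0366; chr9:66946086-66949516). Its values were 16.8, 40.7, 17.4 and 16.6 CPM in ECM and 9.98, 12.6, 9.74 and 13.2 CPM in control. ECM 2 alone was more than 2-fold above the other ECM libraries, yet the remaining 3 also lay above all controls. The call was lost without any 1 of the treated ECM libraries and without control 1, 2 or 3 (adjusted p up to 0.118). Without control 4, ECM 2 and ECM 3 the log2 fold change was 0.62 (adjusted p = 0.0245).

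Rpl35a, of the large subunit (chr16:33056453-33060189), had 22.6, 57.0, 30.4 and 27.2 CPM in ECM and 18.8, 19.1, 19.9 and 15.4 CPM in control, again without overlap and highest in ECM 2. Its log2 fold change was 0.90 ± 0.25 (adjusted p = 0.0339), and 0.37 without the 3 libraries (adjusted p = 0.0862), past the threshold no longer. The call held in the 4 fits without 1 ECM library and was lost without any 1 treated ECM or control library (adjusted p up to 0.0803).

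Rps29, a small zinc-binding protein of the small subunit (chr12:69157722-69159186), was called at a low level, with 1.82, 2.21, 2.16 and 1.60 CPM in ECM and 0.961, 0.990, 1.24 and 0.744 CPM in control, or 11 to 31 reads per library over all 12. Groups did not overlap and the log2 fold change was 0.98 ± 0.28 (adjusted p = 0.0447), but the call held in 0 of 12 fits without 1 library (adjusted p 0.0546 to 0.117).

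**Figure D5:**
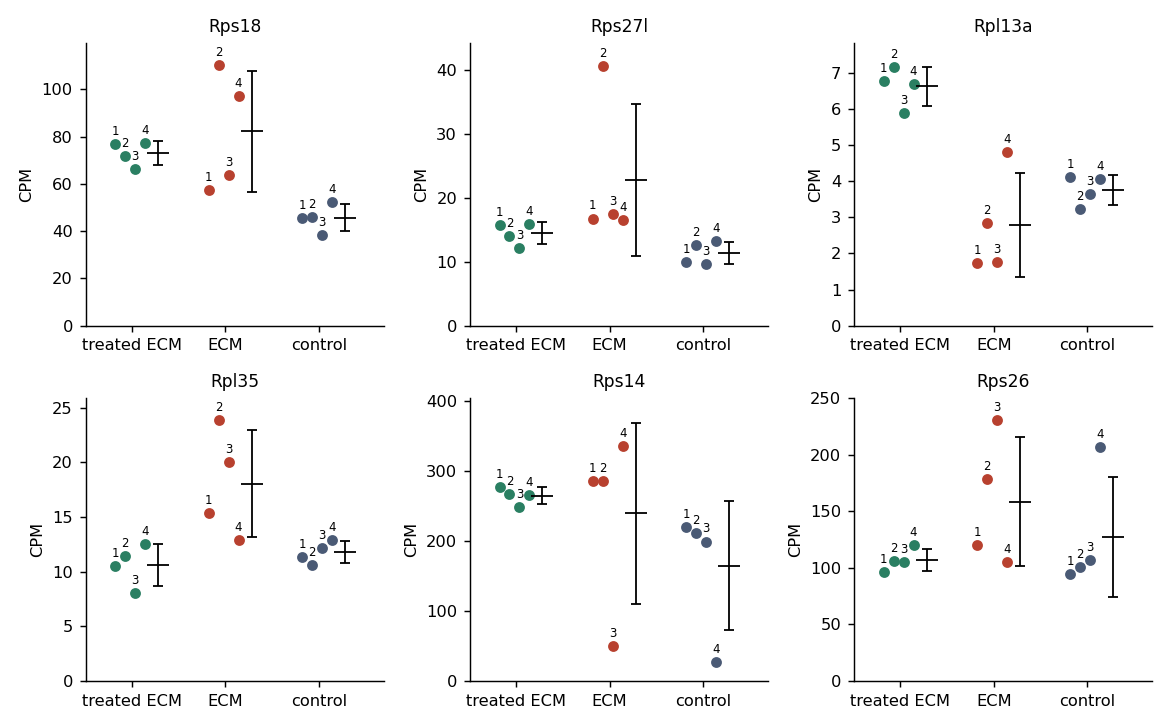
CPM (linear axes from 0) of 6 members in each library, numbered by replicate, with group mean and SD (n = 4). Rps18 and Rps27l are higher in every ECM than in every control library, Rpl13a and Rpl35 separate treated ECM from ECM, and Rps14 and Rps26 show ECM 3 and control 4 apart from their groups.

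Other members with known extra roles were positive without passing the test. Rpsa, also known as a laminin receptor precursor, had 327, 448, 250.5 and 240.4 CPM in ECM and 212, 228, 238 and 161 CPM in control, without overlap (log2 fold change 0.59 ± 0.20, adjusted p = 0.0881). Rplp0, the base of the ribosomal stalk, had 216, 336, 166 and 275 CPM in ECM and 166, 181, 164 and 106 CPM in control (0.69 ± 0.22, adjusted p = 0.0636), where ECM 3 overlapped the controls. Rpl9, of the large subunit, had a log2 fold change of 0.83 ± 0.29 (adjusted p = 0.0953) with no overlap. The 5 members with a negative value were Rpl13a (-0.41), Rpl36a (-0.14), Rpl23a (-0.09), Rpl7l1 (-0.07) and Rps19bp1 (-0.06).

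The number of calls depended on the fit. With only the 8 libraries of ECM and control, edgeR called 0 members (5.03% of all genes higher), and the adjusted p of the 5 genes just described lay between 0.0765 and 0.127. With cerebellum markers as a covariate it called 30, when 11.01% of all genes were called higher, and DESeq2 on all libraries called 13 (6.43% of the 21983 genes in the table). By edgeR the count was 16 without ECM 3 (7.82% of all genes higher), 10 without ECM 1 (6.49%) and 9 without control 4 (7.55%). It was 2 without any 1 of the 4 treated ECM libraries (6.33% to 6.51% of all genes) and 1 without control 1, 2 or 3 (5.49% to 5.89%). Leaving out control 4, ECM 2 and ECM 3 together gave 19 members called higher, when 10.5% of all genes were, and leaving out control 4 and ECM 3 also gave 19 (8.65% of all genes higher). Both sets included 3 of the 5: Rps18, Rpl14 and Rps27l. Rps14 was among the additions (0.56, adjusted p = 0.00357, without the 3 libraries, against 0.54 ± 0.57, adjusted p = 0.646, with all). Control 4 and ECM 3, left out there, held the lowest Rps14 values of their groups, so this call is no separate evidence. Only ECM 1 and ECM 4 and control 1, 2 and 3 then remained in the comparison. The median log2 fold change of the members was 0.40 without the 3 libraries.

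Treated ECM against ECM asked how artesunate-treated ECM libraries differed from ECM libraries. Day of infection is not stated, so the drug, elapsed time and stage of disease cannot be told apart in it. A single member was called in each direction: Rpl13a higher (1.23%, against 3.04% of all genes) and Rpl35 lower (1.23%, against 5.68%). Log2 fold changes were positive in 34 members (42.0%, against 48.9% of all genes) and negative in 47, with a median of -0.13 (all genes -0.01). The direction of that median rested on ECM 2 and on the scaling: it was 0.04 without ECM 2 and 0.0004 with library totals only. At an unadjusted p below 0.05, 2 were higher (2.47%, against 10.4% of all genes) and 18 lower (22.2%, against 15.6%). Groups did not overlap in 2 members higher in treated ECM (2.47%, against 10.5% of all genes), Rpl13a and Rpl7l1, and in 10 lower (12.3%, against 11.3%): Rpl4, Rpl5, Rpl7, Rpl35, Rps3a1, Rps12, Rps15a, Rps24, Rps27a and Rps27l. The shares of called members were below those of all genes in both directions.

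Rpl13a, a large subunit protein that in human monocytes leaves the ribosome after interferon-gamma to silence inflammatory mRNAs, had its lowest group mean in ECM. It had 6.77, 7.17, 5.89 and 6.70 CPM in treated ECM, 1.75, 2.84, 1.76 and 4.80 CPM in ECM and 4.11, 3.22, 3.63 and 4.06 CPM in control libraries. Every treated ECM library was above every ECM and every control library, whereas ECM and control overlapped through ECM 4. The log2 fold change was 1.23 ± 0.30 in treated ECM against ECM (adjusted p = 0.0250), -0.41 ± 0.30 in ECM against control (adjusted p = 0.478) and 0.82 ± 0.30 in treated ECM against control (adjusted p = 0.307). The authors' deposited table gives 1.24 with an adjusted p of 0.00513, by their own test, for treated ECM against ECM. The gene (chr7:45125558-45128761) lies over Gm45713, several small nucleolar RNA genes and Mir5121, and 70.2% of its words are shared, 32.5% with genes elsewhere. At 22 to 130 reads per library its level is low. Its call held in 7 of 12 fits without 1 library, and was lost without treated ECM 1, 2 or 4 or ECM 1 or 3 (highest adjusted p 0.0691). It was also lost without control 4, ECM 2 and ECM 3 (0.99, adjusted p = 0.0619).

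Rpl35, which lies at the exit of the large subunit's peptide tunnel, had 10.5, 11.4, 8.04 and 12.5 CPM in treated ECM, 15.3, 23.9, 20.1 and 12.9 CPM in ECM and 11.4, 10.6, 12.2 and 12.9 CPM in control. Treated ECM lay below ECM in every library, though treated ECM 4 and ECM 4 nearly met, and it overlapped control. The log2 fold change was -0.76 ± 0.21 (adjusted p = 0.0430). The call held in 2 of 12 fits without 1 library, those without ECM 4 and without control 4. It was lost without control 4, ECM 2 and ECM 3 (-0.40, adjusted p = 0.150) and with only the 8 libraries of these 2 groups (-0.75, adjusted p = 0.0765), where that of Rpl13a held (adjusted p = 0.0487). Rpl35 (chr2:39001580-39005624) overlaps Wdr38 and Arpc5l, and 95.1% of its words are shared, 40.1% with genes elsewhere.

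The genes called in ECM against control had negative log2 fold changes in treated ECM against ECM, none of which passed the test. They were Rps27l -0.66 ± 0.28 (adjusted p = 0.156), Rpl35a -0.63 ± 0.25 (adjusted p = 0.126), Rpl14 -0.50 ± 0.19 (adjusted p = 0.118), Rps29 -0.34 ± 0.28 (adjusted p = 0.458) and Rps18 -0.17 ± 0.20 (adjusted p = 0.615). Both comparisons share the ECM libraries, including ECM 2. Rps24 had 114, 111, 105 and 119 CPM in treated ECM and 151, 318, 268 and 120.02 CPM in ECM (-0.93 ± 0.29, adjusted p = 0.0602). Treated ECM was below all ECM libraries, with ECM 4 just above it. Rpl5, which with Rpl11 binds Mdm2 when ribosome assembly fails, had 2.76, 1.74, 3.17 and 2.34 CPM in treated ECM and 4.48, 7.49, 4.00 and 3.51 CPM in ECM, without overlap (-0.95 ± 0.34, adjusted p = 0.1004). Rpl11 was at 0.25 ± 0.25. Leaving out 1 library gave 0 to 2 members called higher (1.25% to 5.49% of all genes) and 0 to 7 lower. The highest counts were 7 lower without ECM 4, when 8.1% of all genes were called lower, and 4 without control 4 (8.87%).

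Treated ECM against control asked how treated ECM libraries differed from controls. No member was called by edgeR in either direction (1.96% of all genes higher, 0.0547% lower). DESeq2 called 3 higher, Rpl36, Rpl41 and Rps2 (1.96% of the 21983 genes in the table), and none lower (0.109%). At an unadjusted p below 0.05, 22 members were higher (27.2%, against 6.68% of all genes) and none lower (4.7% of all genes). Log2 fold changes were positive in 68 of 81 (84.0%, against 50.7% of all genes) with a median of 0.36 (all genes 0.01). In 33 members every treated ECM library was above every control (40.7%, against 10.8% of all genes), and in none below (8.3%). The test takes 1 estimate of spread per gene over all 12 libraries, including ECM 2, ECM 3 and control 4. With only the 8 libraries of these 2 groups, 6 members were called (Rpl13a, Rpl36, Rpl41, Rps2, Rps18 and Rps28), when 2.08% of all genes were called higher.

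Rps28, a small subunit protein at the mRNA exit, had the largest log2 fold change, 1.12 ± 0.34 (adjusted p = 0.181). It had 6.40, 7.03, 4.88 and 5.50 CPM in treated ECM, 1.98, 5.12, 3.84 and 7.85 CPM in ECM and 3.47, 2.60, 2.40 and 2.43 CPM in control. All treated ECM libraries were above all controls, and ECM spanned both. The authors' deposited table, limited to genes past its fold change and p-value thresholds, lists it with 1.11 and an adjusted p of 0.000203 by their own test.

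The acidic stalk proteins Rplp1 and Rplp2, which recruit elongation factors, came next. Rplp1 had 256, 286, 253 and 237 CPM in treated ECM, 152, 219, 78.1 and 275 CPM in ECM and 160.1, 137, 141 and 56.8 CPM in control. Treated ECM was above every control, with ECM 3 and control 4 lowest in their groups. The log2 fold change was 1.06 ± 0.35 (adjusted p = 0.250), and 0.82 without control 4, ECM 2 and ECM 3, then called (adjusted p = 0.026). The authors' deposited table gives 1.05 with an adjusted p of 0.00638 by their own test. Rplp2 had 35.7, 35.9, 28.5 and 28.2 CPM in treated ECM and 21.7, 21.7, 15.6 and 5.07 CPM in control, without overlap (1.00 ± 0.46, adjusted p = 0.437). Rps21 (0.96 ± 0.51, adjusted p = 0.474) and Rpl28 (0.85 ± 0.27, adjusted p = 0.200) separated in the same way. Of the called genes of ECM against control, Rps18 had 76.7, 71.9, 66.2 and 77.4 CPM in treated ECM, all above the controls (0.68 ± 0.20, adjusted p = 0.155). Rps27l was at 0.35 ± 0.28 (adjusted p = 0.594) and Rpl14 at 0.26 ± 0.19 (adjusted p = 0.573). Without control 4, ECM 2 and ECM 3, 8 members were called higher (2.86% of all genes): Rpl8, Rpl31, Rpl34, Rpl39, Rplp1, Rps18, Rps19 and Rps21. Without control 4 and ECM 3 it was Rplp1 and Rps21, and leaving out 1 library gave 0 or 1. Rpl8, Rplp1, Rps19 and Rps21 were among the genes low by more than 2-fold in both control 4 and ECM 3.

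Of the 5 related genes, 3 had a positive log2 fold change in ECM against control, 3 in treated ECM against ECM and 5 in treated ECM against control, with medians of 0.31, 0.28 and 0.30. Rps27l is given above. Rpl22l1, a paralog of Rpl22, had 28.5, 27.9, 25.1 and 23.0 CPM in treated ECM and 20.8, 18.7, 12.4 and 17.6 CPM in control, without overlap (0.59 ± 0.24, adjusted p = 0.371), while Rpl22 itself was at 0.14 ± 0.15 there. Rpl7l1, involved in large subunit assembly, had 52.3, 53.7, 49.6 and 53.5 CPM in treated ECM, above ECM at 38.5, 44.7, 35.8 and 42.9 CPM (0.37 ± 0.15, adjusted p = 0.152). Rps27rt had wide errors (0.77 ± 0.39 in ECM against control). Rps19bp1, a nucleolar partner of Rps19, was fitted without treated ECM 4 because its value there could not be relied on, and ranged from -0.06 to 0.30 over the 3 comparisons.

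Genes that work with ribosomal proteins were counted from lists. Over all genes, edgeR called 7.3% higher and 2.91% lower in ECM against control, and 3.04% higher and 5.68% lower in treated ECM against ECM. At an unadjusted p below 0.05, 13.3% were higher and 9.18% lower in the first, and 10.4% higher and 15.6% lower in the second. In treated ECM against control, 1.96% were called higher and 0.0547% lower, and 6.68% and 4.7% unadjusted. These shares also apply to the mTOR, stress response and p53 lists below. Of ribosomal proteins outside the name rule, Fau, made as a fusion with a ubiquitin-like protein, and Rack1, a scaffold on the small subunit, were not called in any of the 3 comparisons by edgeR or DESeq2. For treated ECM against control, their log2 fold changes were 1.19 ± 0.59 (Fau, adjusted p = 0.453) and 0.38 ± 0.18 (Rack1, adjusted p = 0.450). Fau had 1.68 CPM in ECM 3 and 0.271 CPM in control 4, the lowest values of their groups, and the control 4 value rests on few reads. Of 21 tested elongation factors and other TOP mRNAs, edgeR called Tpt1 alone in ECM against control, higher by 0.90 ± 0.23 (adjusted p = 0.0223), with 9 higher unadjusted and 2 with DESeq2, and 21 of 21 were positive. Eif3e (-0.96) and Naca (-0.69) of that list were called lower in treated ECM than in ECM (8 lower unadjusted, and 5 with DESeq2). Of 24 initiation factors, edgeR called 0 in ECM against control (4 higher at an unadjusted p below 0.05, and 2 with DESeq2), and Eif5 (-0.83) and Eif3d (-0.49) were called lower in treated ECM than in ECM (6 lower unadjusted, and 4 with DESeq2). Of 38 ribosome biogenesis factors, edgeR called 0 in ECM against control (4 higher and 1 lower unadjusted, and 2 higher with DESeq2), with a median of 0.10, while Taf1d (-1.43), a subunit of the RNA polymerase I selectivity factor, and Nop14 (-0.88) were called lower in treated ECM than in ECM (4 higher and 9 lower unadjusted, and 2 higher and 6 lower with DESeq2). Neither tool called a gene of these 3 lists in treated ECM against control, where 3, 2 and 4 genes were higher and 0, 1 and 2 lower unadjusted. Of the 21983 genes in the table, DESeq2 called 6.43% higher in ECM against control. In treated ECM against ECM it called 3.6% higher and 6.14% lower.

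Among 21 mTOR, S6 kinase and Myc-type regulators, Myc, a transcription factor that drives ribosomal protein genes, was called higher in ECM (1.499 ± 0.25, adjusted p = 0.00114) and lower in treated ECM than in ECM (-1.12 ± 0.24, adjusted p = 0.0134). Its relative Mycn went the other way, at -1.74 ± 0.29 in ECM against control (adjusted p = 0.00146) and 2.28 ± 0.30 in treated ECM against ECM (adjusted p = 0.000935). Eif4ebp1, a brake on cap-dependent translation, was higher in ECM (1.29), and Eif4ebp2 higher in treated ECM than in ECM (0.82). In ECM against control the list had a median of -0.20, with 7 of 21 positive (2 higher and 3 lower unadjusted, 2 and 2 with DESeq2). In treated ECM against ECM the median was 0.12 (4 higher and 2 lower unadjusted, 2 and 1 with DESeq2). Neither tool called a gene of this list in treated ECM against control. A part of Myc in the member levels was not tested. Of 16 integrated stress response genes, Atf3 (2.78), the interferon-induced kinase gene Eif2ak2 (2.07) and Ppp1r15a (1.28) were higher in ECM. Eif2ak2 (-1.58) and Ppp1r15a (-0.93) were lower in treated ECM than in ECM, and Atf3 was higher in treated ECM than in control (2.72).

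Of 16 p53 targets, which include Rps27l, Cdkn1a (2.98), Fas (2.09), Pmaip1 (1.499) and Rps27l (1.00) were higher in ECM and Zmat3 (-0.55) lower. Cdkn1a (-2.13) and Pmaip1 (-1.56) were lower and Zmat3 (0.48) higher in treated ECM than in ECM. Set against control, treated ECM had 0 calls of this list by edgeR, 2 genes higher unadjusted and 1 with DESeq2.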

How the data were processed

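Brain RNA was sequenced in 12 libraries, 4 per group. Per the submitters' processing notes, HTSeq, STAR, FastQC and Trimmomatic were used, with genome build mm10, for the deposited counts per gene; versions, annotation and the treatment of multi-mapping reads are not stated there. Values of 2212 genes with names of 8 or more characters were displaced in the table and put back; for 98 of 107 such genes, treated ECM 4 differed from the authors' deposited tables, so these genes (among members, Rps19bp1) were fitted with 11 libraries. The authors' deposited tables also give log2 fold changes and p-values, printed where named, and a normalized signal and FPKM per gene, which were not used; how the authors made the deposited signal and FPKM is not stated. Depth was 13342177 to 18886822 counts per library.

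TMM scaling and the filterByExpr filter (81 of 81 members passed) were applied to the counts, which were tested in 1 edgeR 4.0.16 quasi-likelihood model with 3 contrasts (R 4.3.3), adjusted by Benjamini-Hochberg over 14626 genes. SEs are the log2 fold change over the square root of F. Alternatives included DESeq2 1.42.0, upper quartile or total scaling, no filter, GC and length corrections, a cerebellum covariate and omitted libraries. Named members are a panel, called genes, non-overlapping genes and the 5 highest and lowest. Members and lists were chosen with earlier results of these data known. GC content, length and shared 50-base words come from GENCODE M21, from the protein-coding transcript of median length. A gene of a comparison list is not reported here.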

Additional observations from a re-analysis of the deposited data

Results flagged for a closer look

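A library stood far from the other 3 of its group in 23 of 245 groups examined (the members, and their sum, in each group). Chance gives about 1 in 20 for independent groups, but the members share the same libraries, so the 2 rates cannot be compared. The rate over all genes was not counted. Of the 23, 16 were control 4. There, the low members were Rpl3 (27.0 CPM, others 69.3 to 76.8), Rpl10a (1.56, others 5.38 to 5.98), Rpl18 (13.7, others 41.5 to 46.1), Rpl27 (0.676, others 3.85 to 4.45), Rps14 (26.6, others 199.5 to 221), Rps19 (7.30, others 39.6 to 44.2) and Rps21 (13.1, others 60.5 to 68.2). The high members in control 4 were Rpl4 (678 CPM, others 432.5 to 460.6), Rpl7 (258, others 182 to 193), Rpl26 (247, others 143 to 154), Rpl30 (51.9, others 26.6 to 29.8), Rpl37 (6.76, others 4.52 to 4.72), Rpl37a (11.6, others 5.93 to 6.25), Rps24 (196, others 107 to 120.02), Rps25 (183, others 118 to 121) and Rps26 (207, others 94.7 to 107). ECM 2 was high in Rps27l (40.7 CPM, others 16.6 to 17.4), Rps4x (314, others 188 to 201) and Rpl27a (40.6, others 25.9 to 28.4), and ECM 4 in Rpl7a (57.3, others 27.4 to 31.9). In treated ECM, Rpl11 was low in treated ECM 1 (7.60 CPM, others 9.41 to 9.51), Rpl13 high in treated ECM 2 (7.84, others 6.00 to 6.14) and Rpl39 high in treated ECM 4 (35.2, others 28.8 to 29.2).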

How the results depend on the processing

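Shares in brackets are of all genes called in that direction: for DESeq2 of all 21983 genes in the table, for edgeR of the genes tested. Members called higher in ECM against control, 5 as reported, numbered 13 with DESeq2 (6.43%). By edgeR they numbered 16 with GC correction (9.81%), 3 with length correction (7.23%) and 30 with a cerebellum covariate (11.01%). They numbered 0 with only the 8 libraries (5.03%) and 19 without control 4, ECM 2 and ECM 3 (10.5%). Leaving out only control 4 and ECM 3, an alternative chosen after seeing the data, also gave 19. In treated ECM against ECM, 1 member was called lower as reported (5.68% of all genes). The count was 3 with DESeq2 (6.14%), 2 with GC correction (8.14%) or length correction (5.86%) and 5 with the covariate (7.59%). It was 0 with library totals only (3.94%), without a low-count filter (3.83%) or with the 8 libraries (4.63%). Called higher (1 as reported, 3.04%) were 2 with GC correction (5.48%) or without the 3 libraries (6.99%). In treated ECM against control (0 as reported, 1.96% of all genes higher), 3 were called higher with DESeq2 (1.96%) and 6 with the 8 libraries (2.08%). Another 3 settings gave 6 with the covariate (2.58%), 8 without the 3 libraries (2.86%) and 2 without control 4 and ECM 3 (1.96%). Leaving out 1 library gave 1 to 16, 0 to 2 (higher), 0 to 7 (lower) and 0 to 1. Same-numbered libraries did not deviate together (r -0.66 to 0.31, 3 of 12 above 0.1). A replicate block gave 1 higher in ECM (5.49% of all genes) and 0 lower in treated ECM against ECM (2.67%). With GC correction as well, it gave 8 (7.57%) and 0 (5.24%). Medians kept within the spread between libraries under all alternatives run, at 0.37 to 0.59, -0.22 to 0.04 and 0.35 to 0.40 without 1 library. Rps18 in treated ECM against ECM (-0.17) ranged from -0.31 to 0.0047 without 1 library, changing sign without ECM 2. The cause of these shifts was not tested. Genes of few reads, such as Rps29 and Rpl38, are limited by depth.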
